A study of Mus musculus with 9 samples.

Results

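Fragments of the nuclear tRNAs that carry alanine and cysteine were followed in atrial appendages of C57BL/6 mice. Kinds of fragment, 4 in all, were counted for each of 4 species, tRNA-Ala-AGC, tRNA-Ala-CGC, tRNA-Ala-TGC and tRNA-Cys-GCA, which gave 16 of the 994 small RNA features in the files and 16 of the 200 nuclear tRNA features. The species were chosen by name, with the reads that matched the genome and those that did not added together. The kinds were the 5′ end, the 3′ end without CCA, the CCA end and the remainder, which is every other read of that species. The study compared 3 groups of 3 libraries each. Curcumin mice were 18 months old and had been given 100 mg/kg curcumin each day in non-fat skim milk between 12 and 18 months of age. Old mice were 18 months old and young mice were 5 months old, both labelled as without curcumin, and whether they had the milk is not stated. The series is about susceptibility to atrial fibrillation and tRNA-derived small RNA in the aging atrium. All libraries came from PANDORA-seq, in which AlkB removes methyl groups from RNA bases and T4 polynucleotide kinase repairs RNA ends, so that modified tRNA fragments can enter a library. The design gives an n of 3 per group but does not tie each library to a separate mouse, so p-values measure the spread between these libraries, which may be technical.

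Transfer RNAs are adaptors that read a codon with their anticodon and carry the matching amino acid on a CCA tail added after transcription. Under stress, angiogenin and other ribonucleases cut tRNAs in the anticodon loop and leave 5′ and 3′ fragments. In human cells, 5′ fragments of tRNA-Ala and tRNA-Cys are known for inhibiting the start of translation and for displacing initiation factors from capped mRNA, which depends on a run of guanines at their 5′ end.

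RefSeq lists 89 loci for the 4 species on the mouse assembly GRCm38.p6, the same build as mm10. Of the 13 loci of tRNA-Ala-AGC, 9 lie on chromosome 13. The 9 loci of tRNA-Ala-CGC and the 11 of tRNA-Ala-TGC are most numerous on chromosome X, with 5 and 7 loci there. Of the 56 loci of tRNA-Cys-GCA, 48 lie on chromosome 6 between 47978997 and 48363603. In the GENCODE vM21 annotation, 12 of the 89 lie inside a gene and none overlaps an exon, so those 12 are intronic. They include n-TAcgc3 in Oprd1, n-TAtgc9 in Trim7 and 7 tRNA-Cys-GCA loci in Gm16630. The deposited values are per species and not per locus.

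The sequence of 1 member gene was held whole in the RefSeq promoter sequences of GRCm38.p6, and it is shown for its 5′ guanine run, beside the other 3 tRNA genes held whole there. The tRNA-Ala-AGC gene n-TAagc16 lies at chr13:21222586-21222657 on the + strand, within the promoter window of Gm32420. The tRNA-Arg-TCG gene n-TRtcg5 lies at chr7:79466419-79466491 on the + strand. The tRNA-Thr-AGT gene n-TTagt9 lies at chr7:35234770-35234843 on the - strand. The tRNA-Val-CAC gene n-TVcac9 lies at chr13:23446142-23446214 on the - strand. Capitals mark the run of guanines at the 5′ end and the anticodon, and each sequence reads 5′ to 3′ as in the tRNA.
n-TAagc16: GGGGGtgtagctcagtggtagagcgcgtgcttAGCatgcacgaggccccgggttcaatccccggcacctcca
n-TRtcg5: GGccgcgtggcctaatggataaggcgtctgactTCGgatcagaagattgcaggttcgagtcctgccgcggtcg
n-TTagt9: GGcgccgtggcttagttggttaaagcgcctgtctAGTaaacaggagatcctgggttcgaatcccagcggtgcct
n-TVcac9: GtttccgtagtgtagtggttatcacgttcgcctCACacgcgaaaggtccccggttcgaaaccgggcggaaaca

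The tRNA-Ala-AGC gene opened with 5 guanines, against 2 in the tRNA-Arg-TCG and tRNA-Thr-AGT genes and 1 in the tRNA-Val-CAC gene. Its anticodon stood at bases 33 to 35 of 72, so a 5′ fragment that ends in the anticodon loop would keep the whole guanine run. Read lengths within the 5′ end counts were not used here, so the counts do not separate fragments that end in the anticodon loop from shorter ones.

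Libraries held between 12899427 and 19707803 clean reads, of which nuclear tRNA made up 11.3% to 25.1%. In all 3 groups the library numbered 1 differed from the others: 72.2% to 73.7% of its clean reads matched the genome, against 65.0% to 68.3% in the libraries numbered 2 and 3. Results on the members are therefore given with and without them. The summed level of 8 heart and skeletal muscle miRNA loci was 11908 to 17629 CPM (edgeR read counts scaled to a common library size) in curcumin libraries, 5182 to 13726 CPM in old libraries and 6209 to 17082 CPM in young libraries. Markers of epithelium, neurons and liver reached at most 4.97 CPM, and none of the marker loci was at 0 in all libraries. In young library 1 the summed levels of 4 leukocyte loci and 4 red blood cell loci were 350.3 and 281 CPM, while the other 8 libraries stayed at or below 126 and 99.3 CPM. The part of cell makeup in the member values was not tested, and in bulk tissue fewer cells of a type and less RNA per cell cannot be told apart.

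The 4 species together made up 0.349%, 0.297% and 0.277% of clean reads in curcumin libraries, 0.217%, 0.305% and 0.253% in old libraries and 0.203%, 0.309% and 0.286% in young libraries. They were 0.958% to 2.44% of all nuclear tRNA reads. Their part of the nuclear 5′ end reads was far larger, 13.1% to 37.7%. It averaged 27.1% ± 4.52 in curcumin, 26.3% ± 9.93 in old and 28.5% ± 13.4 in young libraries (SD, n = 3 each), with overlapping groups. Their part of the nuclear CCA end reads was 2.10% to 2.89%, and their part of the nuclear remainder was 0.160% to 0.270%.

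Reads of the 3 tRNA-Ala species were mostly 5′ ends, and those of tRNA-Ala-AGC and tRNA-Ala-TGC nearly all. For tRNA-Ala-AGC the 5′ share, which is 5′ end reads as a percent of the reads of the species, was 95.9%, 93.9% and 94.6% in curcumin libraries, 95.6%, 92.9% and 94.5% in old libraries and 95.7%, 95.3% and 94.2% in young libraries. For tRNA-Ala-TGC it was 94.8%, 93.8% and 93.7% in curcumin, 95.4%, 93.1% and 92.0% in old and 93.6%, 95.3% and 93.9% in young libraries. Both species stayed within a few percentage points over all 9 libraries, and their groups overlapped. The widest 95% Wilson interval of any member's share reached 1.30 percentage points from its value. Such intervals treat each read as a separate molecule and leave out the spread between libraries. PCR copies are not separate molecules, and some reads were divided among annotations, so the intervals can be too narrow even for counting error.

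**Figure D1:**
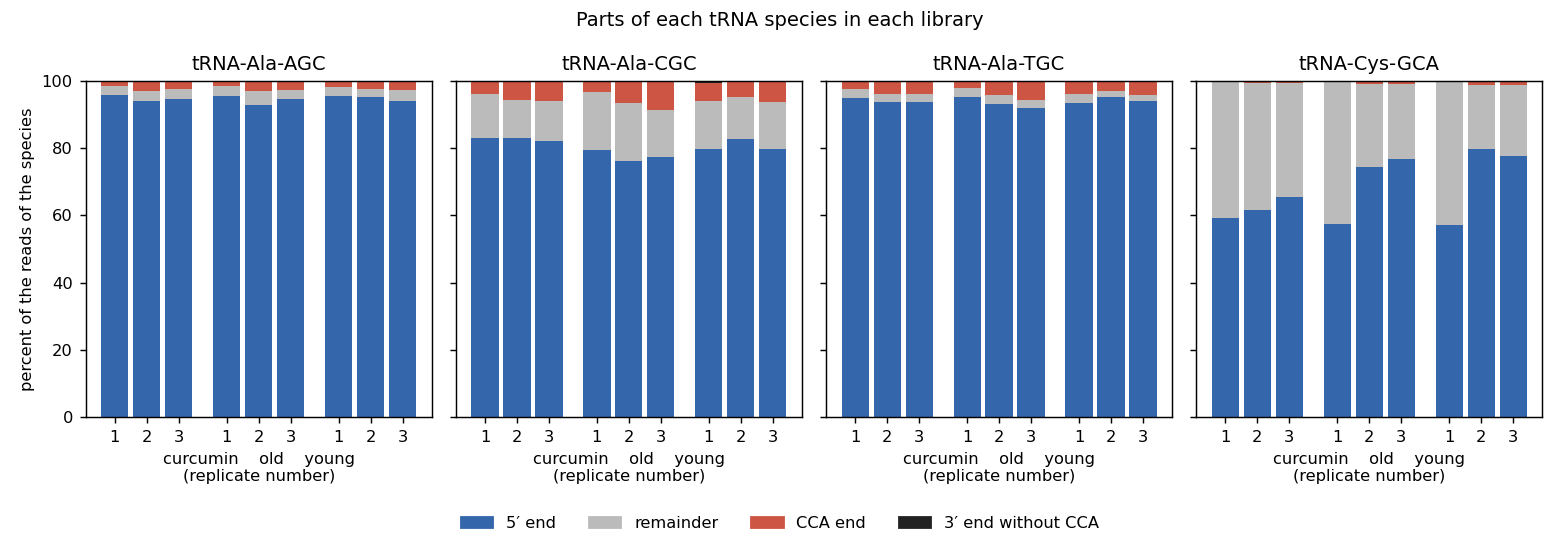
Parts of each of the 4 species as a percent of its reads (y axis) in each library (x axis, replicate number within curcumin, old and young). The 5′ end fills 92.9% to 95.9% of tRNA-Ala-AGC, while the remainder of tRNA-Cys-GCA runs between 19.1% and 42.6%.

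tRNA-Ala-CGC carried more remainder than the other two tRNA-Ala species. Its 5′ share was 82.9%, 83.2% and 82.2% in curcumin libraries, 79.4%, 76.2% and 77.4% in old libraries and 79.8%, 82.8% and 79.9% in young libraries. The remainder took 13.3%, 11.02% and 11.7% of its reads in curcumin libraries, 17.2%, 17.4% and 14.0% in old libraries and 14.2%, 12.4% and 13.8% in young libraries. The 3 old libraries had the lowest 5′ shares, without overlap with the curcumin or the young libraries above them. Against curcumin libraries 6.25% of 48 species had no overlap in that direction, tRNA-Ala-CGC among them. Against young libraries 2.08% had none, which was tRNA-Ala-CGC alone.

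The 5′ share of tRNA-Cys-GCA varied most among the 4 species. Its 5′ share was 59.2%, 61.7% and 65.6% in curcumin libraries, 57.3%, 74.6% and 76.8% in old libraries and 57.1%, 79.9% and 77.6% in young libraries. Nearly all other reads of the species were remainder, at 40.4%, 37.8% and 33.8% in curcumin, 42.4%, 24.6% and 22.3% in old and 42.6%, 19.1% and 21.3% in young libraries. The library numbered 1 had the lowest 5′ share in every group. In the libraries numbered 2 and 3, both curcumin values were below all 4 old and young values.

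Among the 48 nuclear species with at least 100 reads in every library, tRNA-Ala-AGC had the highest median 5′ share, 94.6%, and tRNA-Ala-TGC the second, 93.8%. tRNA-Ser-AGA ranked between them and tRNA-Ala-CGC, with 85.3% against 79.9%. tRNA-Cys-GCA followed at 65.6%, within a group of species with close shares, and its rank ran between 5 and 13 over libraries. The other 44 species had medians of 0.509% to 85.3%, with a median of 9.99%. No library put any of those 44 above 90.3%, which is under the lowest share of tRNA-Ala-AGC, 92.9%, and of tRNA-Ala-TGC, 92.0%. Of the species whose genes are printed above beside n-TAagc16, tRNA-Val-CAC had a median of 59.6%, tRNA-Arg-TCG 1.27% and tRNA-Thr-AGT 0.667%.

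**Figure D2:**
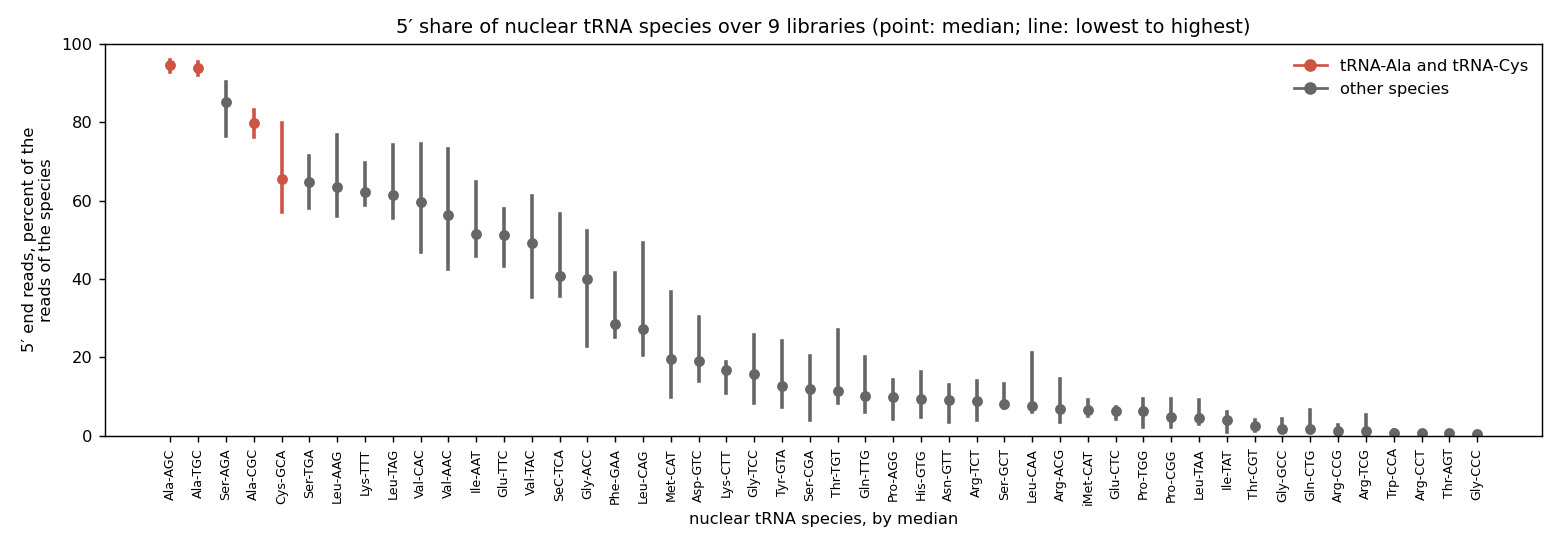
5′ share of 48 nuclear tRNA species (y axis, percent of the reads of the species; x axis, species by median), with the median over 9 libraries as a point and the lowest to highest value as a line. tRNA-Ala-AGC and tRNA-Ala-TGC sit at 92.0% or above in every library, and tRNA-Cys-GCA spans 57.1% to 79.9%.

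Each member stood above the median of the other nuclear species in 9 of 9 libraries. The mean difference was 82.7 percentage points for tRNA-Ala-AGC, 82.0 for tRNA-Ala-TGC, 68.4 for tRNA-Ala-CGC and 55.8 for tRNA-Cys-GCA. An exact two-sided sign-flip test over the 9 libraries gave p = 0.00390625 for each, the smallest it can give, and 0.00551 after Benjamini-Hochberg adjustment over the 48 species. The same test put 21 of the 48 species (43.8%) above, so a p of this size was common among nuclear tRNAs. Species steadily below the median, such as tRNA-Gly-CCC, reached the same smallest p. A comparison with a median must place many species above it, so the test does not single out the members. That test was chosen after the data were seen. The mitochondrial tRNAs of the same amino acids had much lower 5′ shares, 11.6% to 31.8% for tRNA-Ala-TGC and 4.72% to 8.21% for tRNA-Cys-GCA.

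The 5′ end of tRNA-Ala-AGC was the most abundant member fragment. It had 1379, 1047 and 1224 CPM in curcumin libraries, 822, 1773 and 1296 CPM in old libraries and 678, 2021 and 1598 CPM in young libraries. The young libraries enclosed the curcumin values, and the lowest old and young values were both in the library numbered 1. Among the 48 nuclear 5′ ends tested it ranked between 1 and 3 by CPM in every library.

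The 5′ end of tRNA-Ala-TGC had 652, 619 and 602.5 CPM in curcumin, 440.3, 803 and 577 CPM in old and 292, 960.5 and 801 CPM in young libraries. That of tRNA-Ala-CGC had 333, 322 and 310.1 CPM in curcumin, 224, 402.5 and 290.2 CPM in old and 149, 484 and 403 CPM in young libraries. The curcumin libraries lay close together, with SDs of 25.1 and 11.3 CPM, against 183 and 90.3 CPM in old and 349 and 175 CPM in young libraries, and the groups overlapped for both species. These spreads were not tested.

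The 5′ end of tRNA-Cys-GCA had 646, 443 and 585 CPM in curcumin, 506.5, 662.5 and 509 CPM in old and 412, 598 and 528 CPM in young libraries. The groups overlapped, and no group had its 3 libraries at one end. As listed, the 5′ end of tRNA-Ala-AGC was the highest of the 4 in 9 of 9 libraries, and that of tRNA-Ala-CGC the lowest in 9 of 9. The counting divided reads of the tRNA-Ala 5′ ends among annotations, and which annotations shared them is not shown. The order among the 3 tRNA-Ala species is therefore uncertain. tRNA-Ala-TGC was listed above tRNA-Cys-GCA in 7 of 9, the exceptions being old library 1 and young library 1. These CPM levels were not scaled for length, and the RefSeq loci of the 4 species are 70 to 73 bases long.

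**Figure D3:**
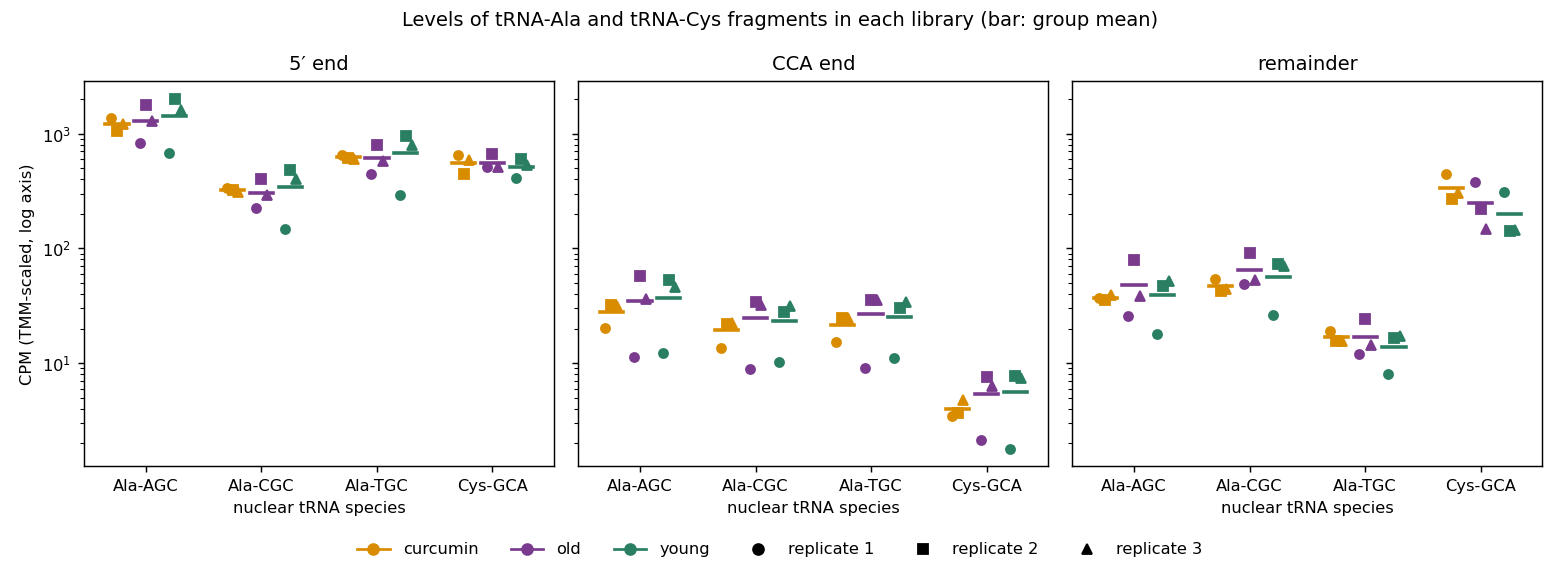
CPM (y axis, log scale, TMM-scaled) of the 5′ end, CCA end and remainder of the 4 species (x axis) in curcumin, old and young libraries, with 1 point per library, shaped by replicate number, and a bar at the group mean. Circles, the libraries numbered 1, are low for the 5′ ends of tRNA-Ala in old and young libraries and high for the remainder of tRNA-Cys-GCA in all 3 groups.

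The remainder of tRNA-Cys-GCA was the largest remainder among the members and moved apart from its 5′ end. It had 440.2, 272 and 302 CPM in curcumin libraries, 375, 219 and 147.5 CPM in old libraries and 307.5, 142.6 and 144.6 CPM in young libraries. The curcumin libraries averaged 338 ± 89.9 CPM, against 247 ± 116 CPM in old and 198 ± 94.6 CPM in young libraries (SD, n = 3 each), with overlap in both comparisons. In every group the library numbered 1 was highest. Set side by side by replicate number, the curcumin library was above the old and the young library in 3 of 3, but the number is not shown to mark a pairing. As a percent of the species' reads, the remainder was lower in curcumin library 1 (40.4%) than in old library 1 (42.4%) and young library 1 (42.6%). In the libraries numbered 2 and 3 that percent was higher in curcumin. Over the 9 libraries the Pearson correlation of log2 CPM between this remainder and the 5′ end of the same species was -0.05, whereas for the 3 tRNA-Ala species the 5′ end and remainder correlated at 0.87 to 0.90. These points share their libraries and library sizes.

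The other remainders were lower, 17.8 to 78.5 CPM for tRNA-Ala-AGC, 26.4 to 91.7 CPM for tRNA-Ala-CGC and 8.06 to 24.3 CPM for tRNA-Ala-TGC. Reads listed as CCA ends spanned 11.3 to 57.5 CPM for tRNA-Ala-AGC, 8.90 to 33.8 CPM for tRNA-Ala-CGC, 8.97 to 35.6 CPM for tRNA-Ala-TGC and 1.78 to 7.74 CPM for tRNA-Cys-GCA. The lowest CCA end value of each species was in an old or young library numbered 1. The 4 3′ ends without CCA held 0 to 21.5 reads and at most 1.30 CPM, and they did not pass the filter on low counts. The one of tRNA-Cys-GCA was at 0 in 4 libraries, where a count of 0 allows up to 3 reads, or 0.214 to 0.276 CPM.

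The separate values of the 3 tRNA-Ala species are uncertain, because the counting divided reads between annotations. Which annotations shared reads is not shown. The values of all 3 tRNA-Ala 5′ ends were fractions in 9 of 9 libraries, whereas those of tRNA-Cys-GCA were whole numbers in 9 of 9. The 5′ end of tRNA-Ala-TGC held 1.92 to 2.00 times the reads of that of tRNA-Ala-CGC in every library, and their log2 CPM correlated at 1.00 over the 9 libraries. For CCA ends the ratio was 1.00 to 1.13, and for remainders 0.227 to 0.365. The separate 5′ levels of the 3 tRNA-Ala species, and the 5′ shares and differences taken from them, carry that uncertainty.

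All reads of the 4 5′ ends matched the genome. Of the CCA end reads, 88.3% did for tRNA-Ala-CGC, 86.2% for tRNA-Ala-TGC and 86.6% for tRNA-Cys-GCA, but 19.9% for tRNA-Ala-AGC. The CCA tail is added after transcription and is not in the gene, and whether the matched reads carry it was not tested. The other 45 nuclear CCA ends had a median of 32.9%, with a range of 0% to 100%.

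The question of what curcumin changed in the aged atrium was addressed by setting curcumin against old libraries. No member differed past the threshold, an adjusted p under 0.05, by edgeR's quasi-likelihood test with Benjamini-Hochberg adjustment over all 520 features tested. The 12 members that passed the filter gave 0 calls against a background of 0 of 520 (0%), with 21 features at an unadjusted p under 0.05 and no member among them. DESeq2 called 0, with 29 at an unadjusted p under 0.05. Log2 fold changes of the 5′ ends were -0.09 (SE 0.40) for tRNA-Ala-AGC, 0.07 (SE 0.40) for tRNA-Ala-CGC, 0.04 (SE 0.40) for tRNA-Ala-TGC and -0.0039 (SE 0.25) for tRNA-Cys-GCA. The median over all features was 0.08, and over the other 44 nuclear 5′ ends 0.16, with 27 positive. The list of 9 species known for abundant 5′ fragments had 4 positive and a median of -0.04.

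In the same comparison all 4 CCA ends, under each scaling tried, had negative log2 fold changes, which with TMM scaling were between -0.42 and -0.30 with SEs of 0.58 to 0.65, and none passed. The other 45 nuclear CCA ends had a median of -0.38, with 36 negative. The remainder of tRNA-Cys-GCA had the highest member value, 0.45 (SE 0.43, edgeR adjusted p = 0.917), and that of tRNA-Ala-CGC the lowest, -0.46 (SE 0.45, adjusted p = 0.917). No member had CPM without overlap between the groups, where 6.15% of all features did so higher in curcumin and 6.73% lower.

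Aging was addressed by old against young libraries. Again edgeR called 0 of 520 features (0%) and 0 of 12 members, with 5 features and no member at an unadjusted p under 0.05, and DESeq2 called 0, with 5. Log2 fold changes of the 5′ ends were -0.14 (SE 0.40) for tRNA-Ala-AGC, -0.18 (SE 0.40) for tRNA-Ala-CGC, -0.17 (SE 0.40) for tRNA-Ala-TGC and 0.13 (SE 0.25) for tRNA-Cys-GCA. The other nuclear 5′ ends had a median of 0.10, with 27 of 44 positive, and the abundant 5′ fragments 0.17, with 8 of 9 positive. All 4 member remainders had positive values, 0.20 to 0.32 with SEs of 0.43 to 0.51, none of which passed, beside a median of 0.11 and 32 of 46 positive among the other nuclear remainders. No member had CPM without overlap, where 2.31% of all features did in each direction.

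Curcumin was also set against young libraries, and the 3 comparisons share their samples. edgeR called 0 of 520 features (0%) and 0 of 12 members, with 19 features and no member at an unadjusted p under 0.05, and DESeq2 called 1, with 30. The remainder of tRNA-Cys-GCA had the largest member value in size, a log2 fold change of 0.77 (SE 0.43, edgeR adjusted p = 0.942). The 5′ ends had -0.24 for tRNA-Ala-AGC, -0.10 for tRNA-Ala-CGC, -0.13 for tRNA-Ala-TGC and 0.12 for tRNA-Cys-GCA, and the other 44 a median of 0.28. Scaled by clean-read totals in place of TMM, the 3 tRNA-Ala 5′ ends turned to 0.06, 0.20 and 0.17. The CCA ends were all negative with TMM scaling, between -0.49 and -0.23, but with clean-read totals tRNA-Ala-CGC had 0.03 and tRNA-Ala-TGC 0.07. The other 45 nuclear CCA ends had a median of -0.35 with TMM scaling. No member had CPM without overlap, where 4.81% of all features did so higher in curcumin and 5.58% lower.

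With the 4 kinds of fragment summed per species, edgeR called 0 of 319 features (0%) in each comparison. tRNA-Cys-GCA averaged 913 ± 234 CPM in curcumin, 819 ± 88.3 CPM in old and 702 ± 57.3 CPM in young libraries (SD, n = 3 each). Its log2 fold change was 0.16 (SE 0.24) for curcumin against old, 0.22 (SE 0.24) for old against young and 0.38 (SE 0.24) for curcumin against young. tRNA-Ala-AGC averaged 1297 ± 226 CPM in curcumin, 1407 ± 541 CPM in old and 1502 ± 775 CPM in young libraries. A p that misses the threshold does not show that levels were equal.

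**Figure D4:**
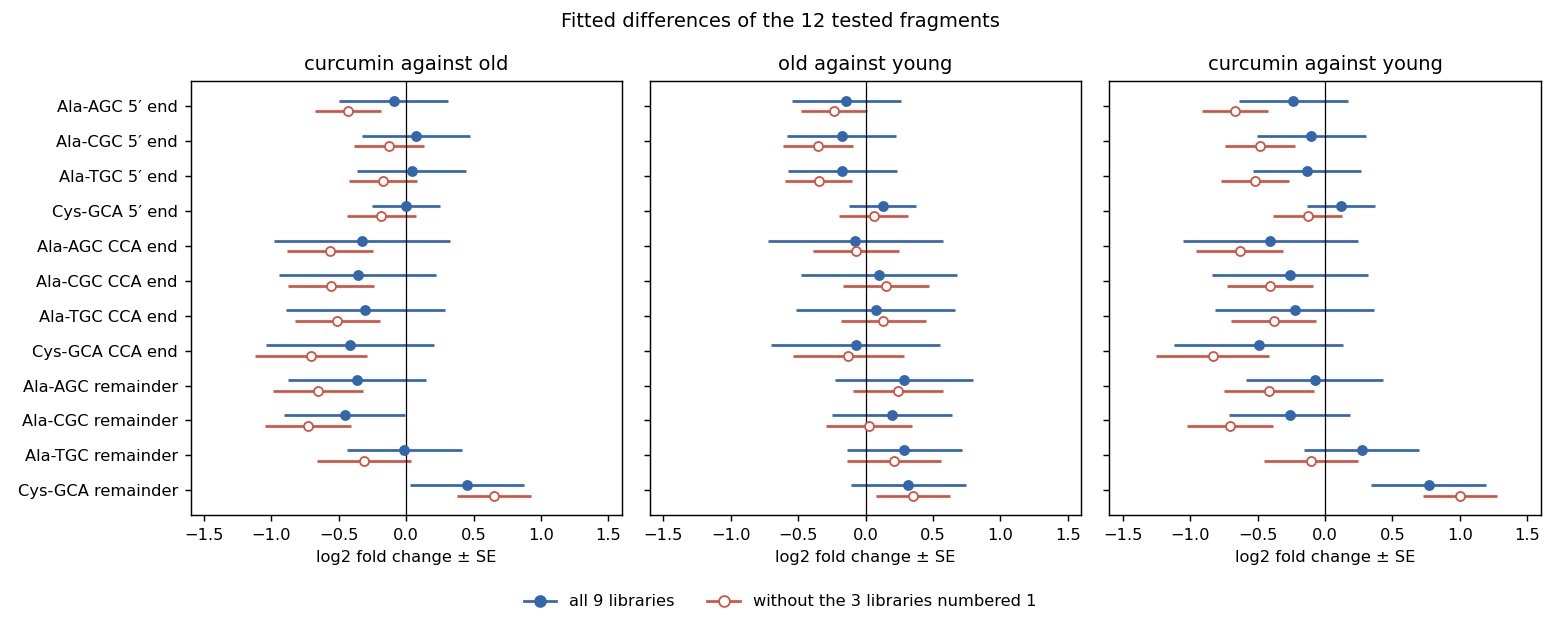
Log2 fold changes (x axis) with SE bars of the 12 tested fragments (y axis) in the 3 comparisons, from all 9 libraries (filled) and from the 6 libraries numbered 2 and 3 (open). The remainder of tRNA-Cys-GCA is the highest value in all 3 panels, 0.77 with all libraries and 1.00 without the libraries numbered 1 in curcumin against young.

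Without the 3 libraries numbered 1, which leaves 2 libraries a group, edgeR called 73 of 519 features (14.1%) for curcumin against old, 0 (0%) for old against young and 67 (12.9%) for curcumin against young. Of the 12 members tested, 1 was among them, for curcumin against young, a smaller share than the 12.9% of all features. The remainder of tRNA-Cys-GCA was higher in curcumin than in young libraries, with a log2 fold change of 1.00 (SE 0.27, edgeR adjusted p = 0.0171), from 272 and 302 CPM in curcumin against 142.6 and 144.6 CPM in young libraries. Against old libraries its value was 0.65 (SE 0.27, adjusted p = 0.0980), and for old against young 0.35 (SE 0.27, adjusted p = 0.986). For curcumin against young, the 5′ end of tRNA-Ala-AGC had -0.67 (SE 0.25, edgeR adjusted p = 0.0759). Those of tRNA-Ala-CGC, tRNA-Ala-TGC and tRNA-Cys-GCA had -0.48 (SE 0.26), -0.52 (SE 0.25) and -0.13 (SE 0.26). The remainder of tRNA-Ala-CGC had -0.70 (SE 0.32, edgeR adjusted p = 0.143), and against old libraries -0.73 (SE 0.32, edgeR adjusted p = 0.109). None of these values passed.

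Summed per species without those libraries, edgeR called 75 of 320 features (23.4%) for curcumin against young. tRNA-Ala-AGC was lower in curcumin, with a log2 fold change of -0.83 (SE 0.25, adjusted p = 0.00964), and so was tRNA-Ala-TGC, with -0.67 (SE 0.25, adjusted p = 0.0408). The 5′ ends of both held reads divided among annotations. tRNA-Ala-CGC had -0.67 (SE 0.27, adjusted p = 0.0529) and tRNA-Cys-GCA 0.01 (SE 0.25). For curcumin against old, 60 of 320 features (18.8%) were called and no member was, and tRNA-Ala-AGC had -0.56 (SE 0.24, adjusted p = 0.0857). The size of the tRNA-Ala-AGC difference between curcumin and young libraries depended on scaling. With TMM scaling it had 1081 and 1278 CPM in curcumin against 2177 and 1673 CPM in young libraries. As a percent of clean reads its relative gap was smaller, 0.115% and 0.112% in curcumin against 0.147% and 0.130% in young libraries. tRNA-Ala-TGC overlapped on that measure, with 0.0681% and 0.0555% in curcumin against 0.0699% and 0.0652% in young libraries. In the same 4 libraries some of the markers differed as well. Summed muscle miRNAs were 17629 and 17381 CPM in curcumin against 6209 and 8866 CPM in young libraries, mir-126a, an endothelial miRNA, 8783 and 8947 CPM in curcumin against 4615 and 5424 CPM in young libraries, and the leukocyte loci 125 and 108 CPM in curcumin against 53.0 and 62.8 CPM in young libraries. The red blood cell loci overlapped, with 55.9 and 58.1 CPM in curcumin against 55.0 and 99.3 CPM in young libraries. The part of the markers in the result was not tested. These calls rest on the choice of libraries, since none was made with all 9.

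The 5′ share was compared between groups by an exact permutation test, two-sided, whose smallest p for groups of 3 is 0.1, so no share could pass. The share of tRNA-Ala-CGC averaged 82.8% ± 0.498 in curcumin, 77.7% ± 1.64 in old and 80.8% ± 1.71 in young libraries (SD, n = 3 each). Curcumin minus old was 5.12 percentage points (exact p = 0.1, adjusted over 48 species 0.923), without overlap. In that direction 6.25% of species were without overlap, tRNA-Ala-CGC among them. Old minus young was -3.17 points (exact p = 0.1, adjusted 0.982), without overlap, and tRNA-Ala-CGC was the only such species in that direction (2.08%). With CCA end reads left out of the species' reads, old minus young was -2.87 points (exact p = 0.2), and old and young libraries then overlapped. Between curcumin and young libraries it differed by 1.96 points (exact p = 0.2), with overlap.

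The 5′ share of tRNA-Cys-GCA averaged 62.2% ± 3.23 in curcumin, 69.5% ± 10.7 in old and 71.5% ± 12.6 in young libraries (SD, n = 3 each). It differed by -7.38 points for curcumin against old (exact p = 0.4), -9.37 for curcumin against young (exact p = 0.4) and -1.99 for old against young (exact p = 0.6). Without the libraries numbered 1 the differences were -12.0, -15.1 and -3.10 points, each with an exact p of 0.333, the smallest that 2 libraries against 2 can give. With all 9 libraries tRNA-Ala-AGC and tRNA-Ala-TGC differed by less than 1 point in all 3 comparisons. Without the libraries numbered 1, tRNA-Ala-TGC differed by 1.23 points for curcumin against old, -2.08 for old against young and -0.85 for curcumin against young, and tRNA-Ala-AGC by 0.56, -1.04 and -0.48 points in the same order of comparisons.

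Features outside the members with the closest pattern over the 9 libraries were named by Pearson correlation of log2 CPM. For the 5′ end of tRNA-Ala-AGC they were the remainder of tRNA-Leu-TAG (0.96), the CCA end of tRNA-Trp-CCA (0.95) and the remainder of tRNA-Ser-TGA (0.93). For tRNA-Ala-CGC they were the 5′ ends of tRNA-Ser-TGA, tRNA-Ser-GCT and tRNA-Ser-AGA (each 0.96). For tRNA-Ala-TGC they were the 5′ ends of tRNA-Ser-GCT and tRNA-Ser-TGA and the remainder of tRNA-Leu-TAG (each 0.96). For tRNA-Cys-GCA they were the remainder of tRNA-Glu-TTC (0.85), the 3′ end of tRNA-Lys-TTT (0.85) and mir-8111 (0.83). The points share libraries and library sizes.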

How the data were processed

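Sequencing covered 9 PANDORA-seq libraries. Per the labels' protocols, RNA of 15 to 45 nucleotides was taken from a gel and read from 1 end over 75 cycles. Cutadapt 2.5 and build mm10 stand in the submitters' processing notes, and which tool annotated the reads is not given in the sources used here. All deposited values are expected counts, not normalized by the authors and divided among annotations where a read matched several. Class totals equal the clean reads (within 23 reads) only if the rows of tRNA ends are left out, so the row of a tRNA species includes its ends, and the remainder was taken as that row minus its 5′, 3′ and CCA ends. Expected counts were rounded to whole numbers, and between 12.7% and 16.3% of clean reads fell in no feature.

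Libraries were fitted together with edgeR 4.0.16 in R 4.3.3 (filterByExpr, TMM scaling, robust quasi-likelihood test, group as the only term), which tested 520 features, and Benjamini-Hochberg adjustment ran over all of them. CPM come from edgeR with TMM scaling. A second fit used species with their parts summed. Shares were compared by exact tests in Python 3.11.15. DESeq2 1.42.0, other scalings, other filters, genome-matched reads alone, libraries left out and a replicate block were tried as alternatives. All 16 member fragments are reported; 3 features most like each 5′ end by correlation are named. Deviations of libraries with the same replicate number correlated over 0.1 in all 3 pairs for old against young (0.27 to 0.81) and curcumin against young (0.19 to 0.33). For curcumin against old they did not (-0.07 to 0.37). Pairs of unlike number ranged widely, for example -0.71 for young library 1 with old library 2. Some were as high, such as young library 3 with old library 2 (0.54) and old library 3 with curcumin library 2 (0.49). A pairing by number is therefore not shown, and the labels do not say what a number marks. The members and lists were chosen with earlier results of these data known.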

Additional observations from a re-analysis of the deposited data

How the results depend on the processing

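With all 9 libraries no member passed under any scaling, filter, tool or leave-one-out fit, and the counts of features called stayed at 0 whichever single library was left out. Without the 3 libraries numbered 1, 73 features were called for curcumin against old and 67 for curcumin against young, with 1 member; summed per species the counts were 60 and 75, with 2 members. DESeq2 called 1 feature for curcumin against young, and 1 with parts summed. With no filter on low counts and parts summed, 1 feature was called for curcumin against old, 2 for old against young and 4 for curcumin against young. The cause was not tested. Clean-read totals in place of TMM moved the median of all features by 0.23 for curcumin against old and 0.19 for curcumin against young on the log2 scale, so signs of small differences are not firm: 30 of 36 fragment values changed sign under some alternative, and 6 of 12 differences of the 5′ share did. With a replicate block edgeR called 0 features in each comparison, so no call changed. The features at an unadjusted p under 0.05 then numbered 41 for curcumin against old, 5 for old against young and 40 for curcumin against young, among them 1 member in the last, the remainder of tRNA-Cys-GCA, with a log2 fold change of 0.84 (SE 0.27, adjusted p = 0.549). Groups of 3 libraries and the 3′ ends' 0 to 21.5 reads limit precision.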
